A study of Homo sapiens with 4 samples.

Results

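The mitochondrial ribosomal protein genes are those whose symbols begin with MRPL (large subunit) or MRPS (small subunit) followed by a digit. In the deposited table, 77 protein-coding genes out of 29833 genes of all kinds met this rule, which uses names only and no measured value. The cells were Reh-6-MPR, a subline of the established B-cell acute lymphoblastic leukemia line Reh that was made resistant to 6-mercaptopurine (6-MP) by stepwise exposure and was then kept in drug-free medium before the experiment. All 4 libraries came from this resistant subline, 1 library per treatment after 48 h: PBS alone (vehicle), histidine at 4 mM, 6-MP at 1.0 μg/mL, and histidine with 6-MP at the same doses (combined). The study asked which transcripts accompany the response of resistant cells when histidine is added to 6-MP. Parental, drug-sensitive Reh cells were not among the libraries, so every comparison is within the resistant subline.

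Mitochondria keep their own ribosome, which translates the few messages encoded by mitochondrial DNA, all of them for subunits of the respiratory chain and the ATP synthase. Its RNAs are transcribed inside the organelle, whereas its proteins are encoded in the nucleus, made in the cytosol and imported, so the amounts of both parts depend on separate transcription systems. Some of the proteins descend from bacterial ribosomal proteins, and others are found only in mitochondria and cover or replace parts of the shortened RNA. The symbols follow the subunit in which each protein was first found, with exceptions: MRPS30 and MRPS18A sit in the large subunit, and MRPS36 belongs to the 2-oxoglutarate dehydrogenase complex. Here the members were split accordingly into 30 large-subunit proteins with a bacterial counterpart, 20 specific to the mitochondrial large subunit, 16 small-subunit proteins with a bacterial counterpart, 10 specific to the mitochondrial small subunit, and MRPS36. A further name of the list, MRPL53, was not analysed here.

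Expression was given as FPKM, the reads of a gene divided by its length and by the reads of its library. Differences between libraries are given as differences in log2(FPKM + 1), which understate the change of genes with low values. Since each treatment has a single library, the differences have no replicate error and carry no p-values. Where a 95% interval is printed, it is an exact interval (Clopper-Pearson, conditional on the sum of both read counts) on the log2 ratio of the reads behind the FPKM values. It covers counting error only and compares 2 libraries, not 2 treatments. Comparisons were limited to the 12750 genes whose FPKM averaged 1 or more, including 74 of the 77 members. MRPL2, MRPS12 and MRPS24 lay below this level.

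The depth was 12899122 reads in the combined library and 14316493 to 15486376 in the others. The combined library stood apart from the others over the whole table. Although it was the shallowest, 25443 genes had a value above 0 in it, compared with 23635 to 23978 in the other 3, and the median difference of all genes compared was 0.13 between combined and vehicle, 0.015 between histidine and vehicle and 0.0039 between 6-MP and vehicle. B-cell precursor markers were highly expressed, with a summed FPKM of 1263 to 1327 over the 9 of 10 markers in the table. The summed FPKM was 0.0283 to 0.365 for T cell markers (2 of 6 in the table, CD8A being listed at 0 in the vehicle and histidine libraries), 0.159 to 0.492 for erythroid markers (3 of 5) and 0.869 to 2.04 for stromal markers (1 of 4), each highest in the combined library. Myeloid markers (5 of 6) summed to 27.4 to 31.4 in the other libraries and to 44.7 in the combined library, of which MPO made up 41.0. The part of these differences in the results was not tested. As there is only 1 combined library, no result on it can be given without it.

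Sequence before a RefSeq start site is shown first for 9 of the 11 members that differed by 0.5 or more between combined and vehicle. They were picked by that difference alone. MRPL10 and MRPL1 are not shown, the latter because annotated exons left a stretch of under 30 bases. The stretches below come from RefSeq windows (GRCh38.p14), run 5′ to 3′ on the strand of the gene and stop before the first annotated exon base of any gene in GENCODE 29. Capitals mark matches to any of 6 short motifs, searched on both strands: the NRF1 core GCGCATGC, the ETS core CCGGAAG, the YY1 core AAGATGGC, the cyclic AMP response element (CRE) TGACGTCA, the E-box CACGTG and the SP1 box GGGCGG. The stretches of MRPL24, MRPL14 and MRPS33 lie inside the deposited span of their own gene but outside its annotated exons, and the other 6 lie outside it. The first 8 genes were lower in the combined library and MRPS33 was higher.
MRPS34 (chr16:1773156-1773206, minus strand): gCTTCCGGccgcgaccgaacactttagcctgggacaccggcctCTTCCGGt
MRPL12 (chr17:81703301-81703356, plus strand): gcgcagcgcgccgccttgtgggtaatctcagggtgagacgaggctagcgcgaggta
MRPL24 (chr1:156741132-156741179, minus strand): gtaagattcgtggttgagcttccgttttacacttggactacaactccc
MRPL3 (chr3:131502984-131503073, minus strand): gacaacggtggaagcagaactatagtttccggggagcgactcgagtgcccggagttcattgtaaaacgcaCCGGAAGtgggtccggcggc
MRPL47 (chr3:179604655-179604689, minus strand): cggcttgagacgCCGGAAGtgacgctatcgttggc
MRPL20 (chr1:1407314-1407403, minus strand): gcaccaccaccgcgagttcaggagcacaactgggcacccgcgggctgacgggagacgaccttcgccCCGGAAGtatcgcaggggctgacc
MRPL14 (chr6:44127309-44127343, minus strand): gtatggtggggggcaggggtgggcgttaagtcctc
MRPL4 (chr19:10251811-10251900, plus strand): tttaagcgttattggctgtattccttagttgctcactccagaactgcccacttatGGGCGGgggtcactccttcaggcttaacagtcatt
MRPS33 (chr7:141014984-141015073, minus strand): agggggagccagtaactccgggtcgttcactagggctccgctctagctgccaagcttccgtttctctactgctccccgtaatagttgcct

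The ETS core, the letters bound by transcription factors of the ETS family, stood in 4 of these 9 stretches, those of MRPS34, MRPL3, MRPL47 and MRPL20, and in MRPS34 it stood at both ends. A promoter window, from 250 bases before to 50 bases after a start site, was found for 68 of the 77 members, some with several starts, giving 84 windows. The ETS core was in 38.1% of the members' windows, compared with 18.5% of the 11903 windows of protein-coding genes compared here and 10.3% of all 35116 windows. The YY1 core was in 27.4% of the members' windows, compared with 5.36% and 2.89%, and 16 of its 24 matches reached past the start site. Counted per window, the other motifs were closer to the background of expressed protein-coding genes. The NRF1 core was in 7.14% compared with 5.21% and the E-box in 10.7% compared with 9.53%. The CRE was in 1.19% compared with 2.87%, and the SP1 box in 59.5% compared with 67.7%. Counted per gene, the SP1 box was less frequent, in 60.3% of the 68 members compared with 78.4% of 8201 protein-coding genes. The ETS core was then in 42.6% compared with 24.6%. No matches to different motifs overlapped in the members' windows. MRPL46 and MRPS11 share a start region on chromosome 15, facing away from each other with 320 bases between their start sites. A match is a description of the letters and not a binding site.

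The members with an ETS or YY1 core differed in the combined library about as much as those without. Among the members compared, the median difference between combined and vehicle was -0.14 for the 28 with an ETS core and -0.19 for the 38 without one. It was -0.14 for the 19 with a YY1 core and -0.16 for the 47 without. The 9 members with an E-box, the letters bound by MYC and related factors, had a median of 0.12, with 3 below 0, against -0.18 for the 57 without. Among the 6 motifs, the E-box was the only one whose members had a median above 0. For the NRF1 core the median was -0.21 over 6 members with it and -0.16 over 60 without. For the SP1 box it was -0.16 over 39 with it and -0.15 over 27 without. The 1 member with a CRE was at -0.54. All these medians are descriptions over genes of the same 2 libraries.

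The members were expressed at moderate levels. Over the 77 genes the median was 15.98 FPKM in vehicle, 15.8 after histidine, 15.5 after 6-MP and 15.5 after both. For comparison, the median over 77 genes of cytosolic ribosomal proteins was 206 to 220 FPKM, and that over 37 NDUF genes, which encode subunits of respiratory complex I, was 8.21 to 9.79. The most abundant member was MRPL37, a mitochondria-specific protein of the large subunit, at 72.1 FPKM in vehicle, 72.0 after histidine, 72.3 after 6-MP and 78.4 after both. MRPS26, MRPS21, MRPL51 and MRPL18 followed, with means of 57.1, 56.9, 56.8 and 51.6 FPKM over the libraries. The order among MRPS26, MRPS21 and MRPL51 was not the same in every library.

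**Figure D1:**
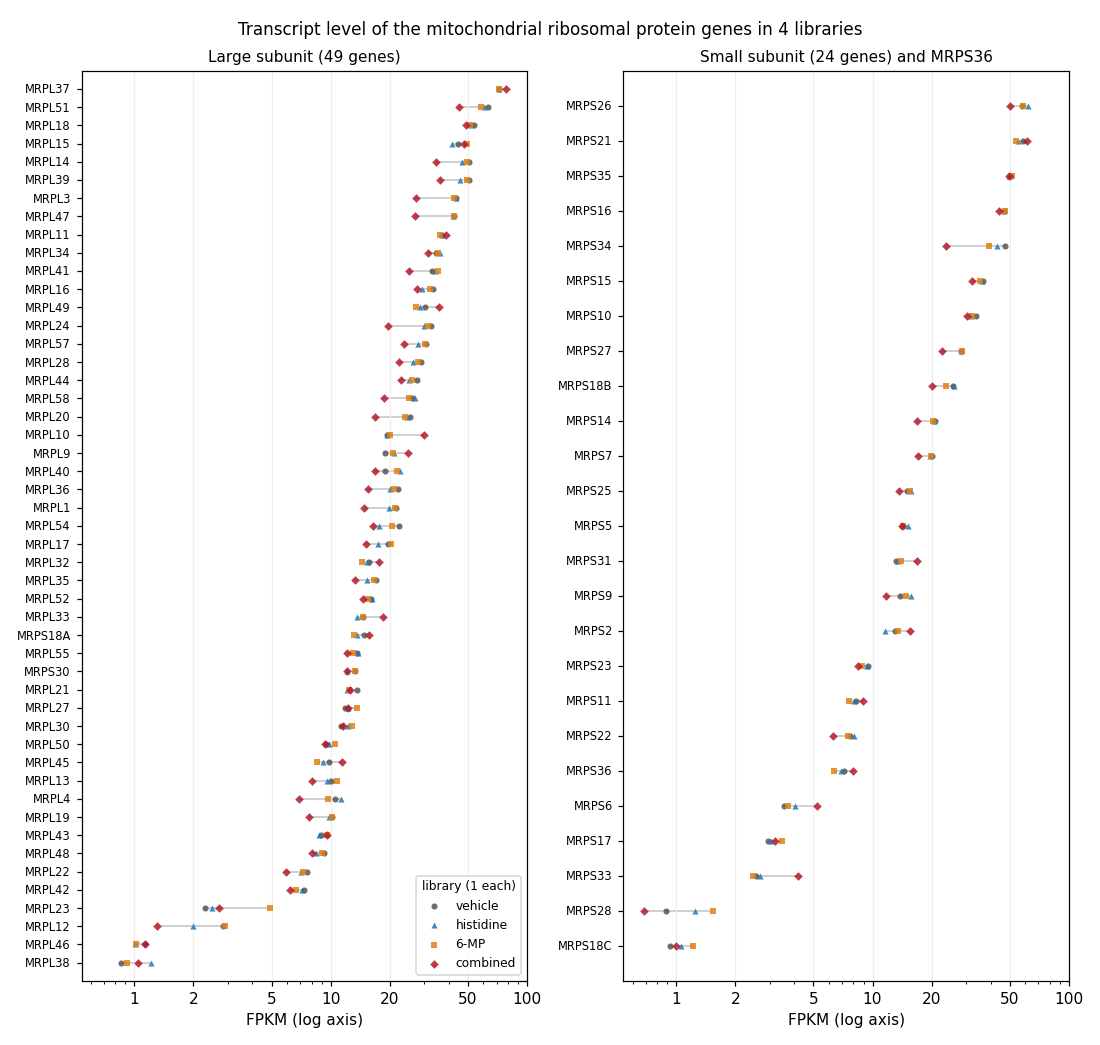
Each row is 1 of the 74 genes compared, and the horizontal axis is its FPKM on a log scale. The 4 symbols are the 4 libraries (1 per treatment), joined by a grey line from lowest to highest. Most genes lay between about 5 and 60 FPKM, and the red diamonds of the combined library stood at the left end of the line in 48 of 74 genes.

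At the other end, 12 members had a mean below 5 FPKM. MRPS24, the counterpart of bacterial S3, had 6, 1, 5 and 3 reads in the vehicle, histidine, 6-MP and combined libraries, and MRPL2, the counterpart of bacterial L2, had 3, 8, 3 and 5. MRPS12, the counterpart of the streptomycin-binding protein S12, had 14, 37, 7 and 17 reads. MRPL38 had a mean of 1.01 FPKM and MRPS18C one of 1.05. Of the 12 members below 5 FPKM, 11 shared exon bases with another gene in GENCODE 29, and 7 shared at least 5% of them with a gene on the same strand. Of the 65 members above 5 FPKM, 6 shared that much on the same strand. For MRPL12 the shared part was 68.2% of the exon bases, for MRPL38 37.5%, for MRPS28 35.8%, for MRPS17 27% and for MRPS24 23.2%. MRPS18C shared 40.2% with a gene on the opposite strand. How reads that overlap more than 1 gene were counted is not given in the sources used here, so the values of these genes are uncertain, and the part of the overlap in them was not tested.

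In the combined library most mitochondrial ribosomal protein genes were lower than in vehicle, by a small amount per gene. The median difference of the 74 members was -0.15, beside 0.13 for all genes compared and 0.057 for protein-coding genes that averaged 5 FPKM or more. Below 0 lay 49 members (66.2%), compared with 36.4% of all genes. Of the members, 9 (12.2%) were lower by 0.5 or more, a difference that 7.37% of all genes showed, and 2 were higher by 0.5 or more, compared with 19.7% of all genes. Of the 6735 protein-coding genes that averaged 5 FPKM or more, 522 were lower and 832 higher by that much. Of 76 cytosolic ribosomal protein genes, 5 were lower and 3 higher. None of the 74 mitochondrial members reached an absolute difference of 1, which 6.53% of all genes did. In bulk RNA, fewer cells that express a gene and less of its RNA per cell cannot be told apart.

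The summed reads of the 77 members gave the same direction. Scaled to a common library size (RPM), they came to 4022 in vehicle, 3937 after histidine, 3978 after 6-MP and 3609 after both. The log2 ratio of combined to vehicle was -0.16 (95% counting interval -0.17 to -0.14). For histidine it was -0.031 (-0.047 to -0.014) and for 6-MP -0.016 (-0.032 to 0.00045). When libraries were rescaled so that the median gene did not differ, which lowered the combined values by 0.16 on the log2 scale, 18 members (24.3%) were lower by 0.5 or more and none was higher, compared with 11.7% and 13.9% of all genes on that scale. The median difference was then -0.29, and 13 members, MRPL37 and MRPS36 among them, were above 0 before rescaling and below 0 after it.

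**Figure D2:**
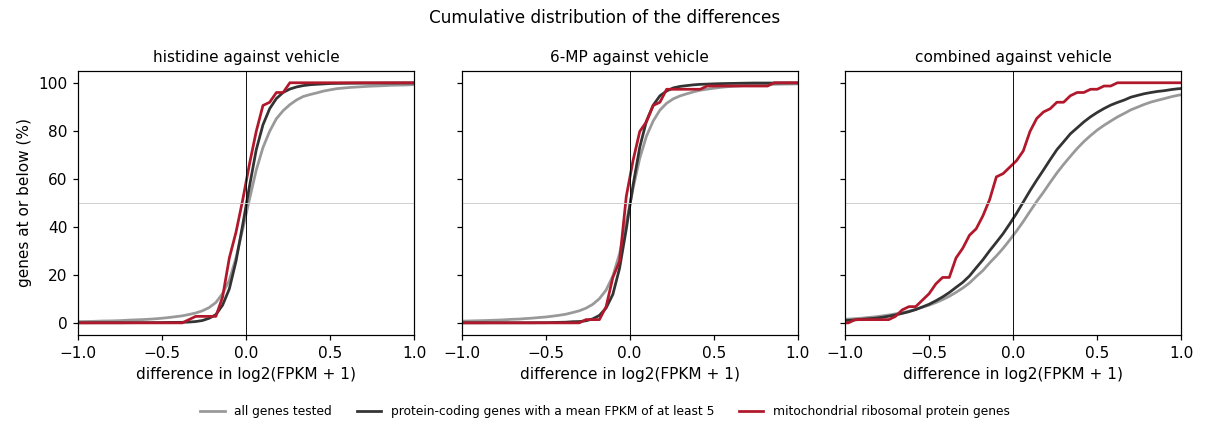
The curves give the percentage of genes (vertical axis) whose difference in log2(FPKM + 1) from vehicle lies at or below the value on the horizontal axis, for the mitochondrial ribosomal protein genes (red, 74), protein-coding genes that averaged 5 FPKM or more (black) and all genes compared (grey). With histidine or 6-MP alone the curves run close together, with medians within 0.04 of each other, and with the combined treatment the red curve lies to the left, with a median of -0.15.

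The combined library held the lowest of the 4 values for 48 of the 74 members (64.9%) and the highest for 17 (22.97%). Over all genes the shares ran the other way, with the combined library lowest for 28.8% and highest for 53.8%. The NDUF genes resembled the members, with the combined library lowest for 58.8% and a median difference from vehicle of -0.14. The cytosolic ribosomal protein genes did not, with the combined library lowest for 30.3% and a median difference of 0.11, which became -0.038 after rescaling to the median gene. Lower values at higher expression were a feature of the table as a whole: across genes, Spearman's rho between the mean level and the difference was -0.29 for the 74 members and -0.28 for all 12750 genes. Between the gene length behind the FPKM values and the difference, rho was 0.28 for the 74 members and -0.035 for all 12750 genes. The part of length in the members' differences was not tested. These values are descriptions across genes of the same libraries, which are not independent.

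By class, the large-subunit proteins with a bacterial counterpart had the lowest median difference between combined and vehicle, -0.29 over 29 genes. They held 8 of the 9 members lower by 0.5 or more. Those 8 were 27.6% of the class, and 7.37% of all genes were lower by that much. The mitochondria-specific proteins of the large subunit had a median of -0.15 over 20 genes, with none past 0.5 in either direction. This contrast depends on the scaling. After rescaling to the median gene, 6 of these 20 were lower by 0.5 or more, beside 11.7% of all genes. The class with a bacterial counterpart then held 11 of the 18 such members. In the small subunit the median was -0.048 for the 14 genes with a bacterial counterpart, none past 0.5, and -0.18 for the 10 mitochondria-specific genes, of which 8 lay below 0. MRPS36, which is not part of the ribosome, stood at 7.17 FPKM in vehicle, 6.88 after histidine, 6.40 after 6-MP and 7.96 after both, a difference of 0.13 from vehicle. The 37 members that share no exon bases with any gene had a median difference between combined and vehicle of -0.18. The 14 compared members that share some with a gene on the same strand had one of -0.0069. The members without shared bases also had the higher median level, and the part of overlap in these medians was not tested. These are medians over genes in 1 pair of libraries, and differences between the classes have no test.

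MRPS34, a mitochondria-specific protein of the small subunit at chromosome 16, positions 1771890 to 1773150, had the lowest difference of all members. It was at 47.3 FPKM in vehicle, 43.2 after histidine, 39.1 after 6-MP and 23.7 after both. The combined value was the lowest of the 4 by a wide margin and the vehicle value the highest. The difference between combined and vehicle was -0.97, and the read ratio, from 740 and 334 reads, was -0.997 (-1.19 to -0.81).

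The next lowest were large-subunit proteins with a bacterial counterpart. MRPL12 (chromosome 17, 81703367 to 81707517), the counterpart of the stalk protein L7/L12 that contacts translation factors, was at 2.84 FPKM in vehicle, 1.98 after histidine, 2.91 after 6-MP and 1.31 after both. The difference of -0.73 rests on 41 and 17 reads, and the interval of the read ratio was correspondingly wide, -2.03 to -0.27. As given above, MRPL12 is also the member that shares most of its exon bases with another gene. MRPL24 (chromosome 1, 156737303 to 156741590), whose bacterial counterpart L24 binds early in the assembly of the large subunit, was better covered, at 32.3, 29.8, 31.3 and 19.7 FPKM in the same order of libraries. The first 3 libraries lay close together and the combined value lay well below them, a difference of -0.68 from vehicle (read ratio -0.71, -0.88 to -0.54).

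MRPL3 (chromosome 3, 131462212 to 131502983), the counterpart of L3 near the peptidyl transferase centre, showed the same shape with the most reads of this group. It was at 43.6 FPKM in vehicle, 43.3 after histidine, 42.6 after 6-MP and 27.1 after both, and the read ratio of combined to vehicle was -0.69 (-0.80 to -0.57) from 1694 and 949 reads. MRPL47 (chromosome 3, 179588285 to 179604649), the counterpart of L29 at the exit of the peptide tunnel, was at 42.5, 42.1, 42.3 and 26.98 FPKM. In both genes histidine alone and 6-MP alone differed from vehicle by at most 0.03, and only the combined library departed.

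Among the others lower by 0.5 or more, MRPL20, whose counterpart L20 binds the rRNA during assembly, was at 25.4, 24.4, 23.9 and 16.8 FPKM in vehicle, histidine, 6-MP and combined, a difference of -0.57. MRPL14, at the interface of the subunits, was at 50.6, 46.9, 49.7 and 34.3 FPKM, a difference of -0.55. For MRPL4, which lines the peptide tunnel, the values were 10.5, 11.2, 9.67 and 6.92 FPKM, a difference of -0.54. In all 3 the combined value was the lowest, and the other 3 values lay close together. MRPL1, the protein of the mobile L1 stalk, followed at 21.5, 19.9, 21.3 and 14.7 FPKM, a difference of -0.51. Just outside this limit was MRPL36, at 22.1, 20.1, 20.9 and 15.5 FPKM, a difference of -0.48.

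MRPL20 lies beside an antisense transcript and a divergent one that carry its name. MRPL20-AS1 was at 19.9 FPKM in vehicle and 16.4 in the combined library, and MRPL20-DT at 6.42 and 7.89. The reads of MRPL20-AS1 over the libraries came to 75.5% of those of MRPL20. The library kit keeps the strand, but whether the counting used it is not given in the sources used here.

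**Figure D3:**
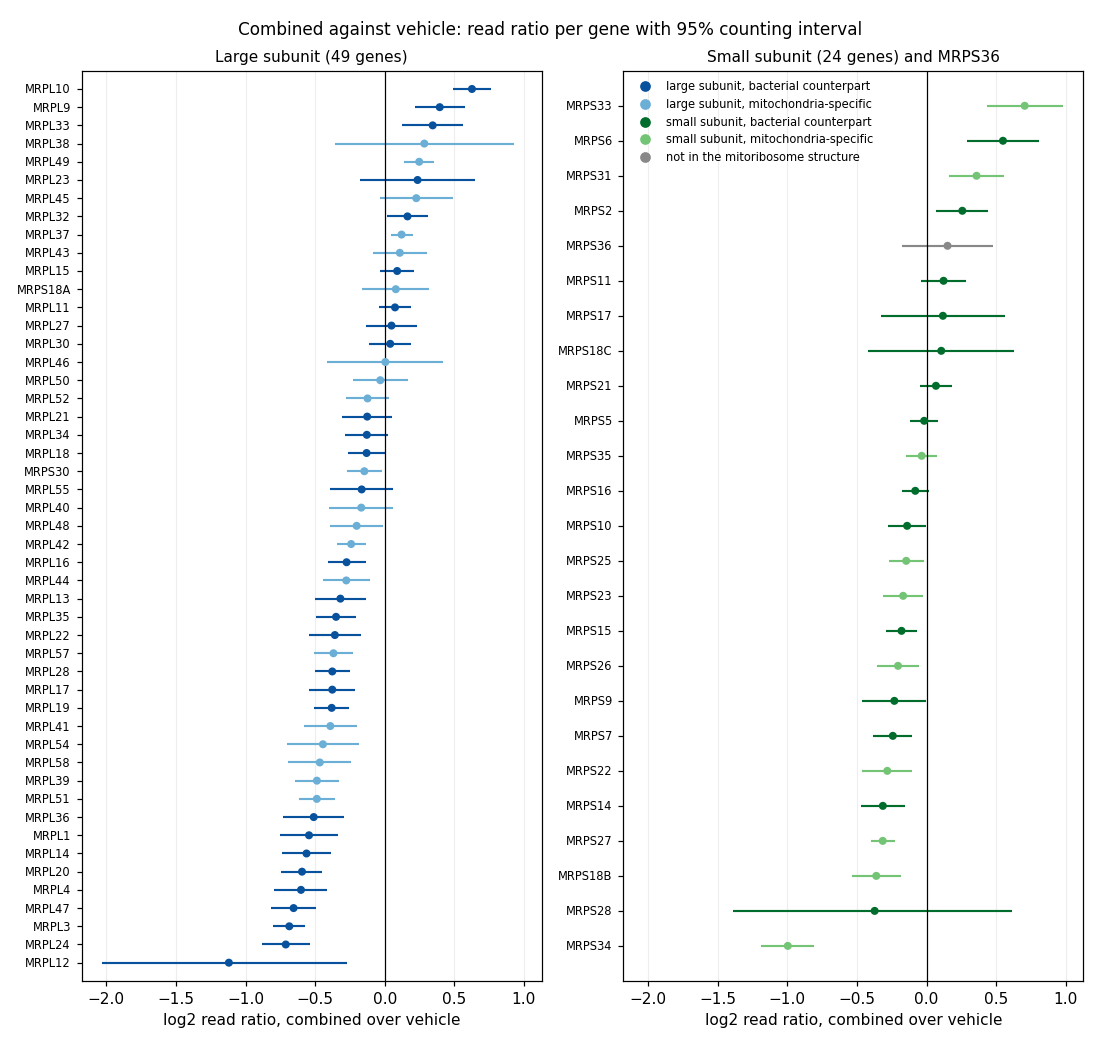
Each point is the log2 ratio of reads, combined over vehicle, relative to library depth (horizontal axis), for the 74 genes compared, sorted within each subunit, with its 95% counting interval as a line. Colours give the classes. MRPS34 is at -0.997, MRPL10 at 0.63, and the widest intervals belong to genes with few reads such as MRPL12 and MRPS28.

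Among the members higher in the combined library, 2 passed 0.5. MRPL10 (chromosome 17, 47823272 to 47831541), the counterpart of L10, which anchors the L7/L12 stalk on the large subunit, had the highest difference, at 19.3 FPKM in vehicle, 19.4 after histidine, 20.1 after 6-MP and 29.7 after both. The 3 other libraries lay within 1 FPKM of each other, and the difference between combined and vehicle was 0.60 (read ratio 0.63, 0.49 to 0.76). The stalk protein MRPL12 was lower in this library, but at few reads and with 68.2% of its exon bases shared with another gene. A contrast between the 2 genes was not tested. MRPS33 (chromosome 7, 141002610 to 141015228), a mitochondria-specific protein of the small subunit, was at 2.56, 2.66, 2.47 and 4.17 FPKM, a difference of 0.54 (read ratio 0.70, 0.44 to 0.98). It shares no exon bases with another gene in GENCODE 29.

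Below 0.5, MRPS6 was higher by 0.44, at 3.55 FPKM in vehicle, 4.05 after histidine, 3.72 after 6-MP and 5.19 after both. MRPL9 was at 18.9, 20.9, 20.7 and 24.8 FPKM, a difference of 0.38, and MRPS31 at 13.2, 13.5, 13.9 and 16.9 FPKM, a difference of 0.34. In these 3 genes the combined library was the highest of the 4. MRPL33 and MRPL49 differed by 0.32 and 0.24, MRPS2 by 0.24, and MRPL45, a protein at the inner-membrane side of the ribosome, by 0.21. Several share exon bases with a gene on the same strand: MRPL33 21.1%, MRPS6 9.61% and MRPL9 6.51%. On the opposite strand MRPL9 shares 33.2%, MRPS2 14.4% and MRPL49 12.2%, while MRPS31 and MRPL45 share none. Among the lower members, MRPL20 shares 10.5% on the same strand and MRPL4 21.4% on the opposite one. MRPL23 followed at 0.17 and is described with 6-MP. These differences lie in the part of the distribution where many other genes are found, since 19.7% of all genes were higher by 0.5 or more.

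The 3 copies of the small-subunit protein S18 are located in different places of the ribosome and were compared with each other. MRPS18A, in the large subunit, was at 14.8, 13.7, 13.2 and 15.6 FPKM in vehicle, histidine, 6-MP and combined. MRPS18B, a mitochondria-specific position in the small subunit, was at 25.7, 26.1, 23.7 and 19.99 FPKM. MRPS18C, at the site of the bacterial protein, was at 0.933, 1.06, 1.22 and 1.004 FPKM. Only MRPS18B was lowest in the combined library, with a difference of -0.35 from vehicle (read ratio -0.36, -0.54 to -0.19), while the intervals of the other 2 included 0. MRPS30, the other large-subunit protein with an MRPS name, was at 13.4, 12.1, 13.3 and 12.1 FPKM, a difference of -0.14. MRPL58, which is related to release factors and can free peptides from stalled ribosomes, was at 25.9, 26.8, 24.9 and 18.8 FPKM, a difference of -0.45.

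Histidine alone left the members close to vehicle. The median difference was -0.024, beside 0.015 for all genes, and 45 of 74 members lay below 0. No member was lower by 0.5 or more and none higher, compared with 1.93% and 2.93% of all genes. Of the 6735 protein-coding genes that averaged 5 FPKM or more, 8 were lower and 21 higher by that much. None of the members reached an absolute difference of 1, compared with 1.33% of all genes. The lowest were MRPL12 at -0.36, MRPL54 at -0.33 and MRPL16 at -0.18. MRPL54 was at 22.3 FPKM in vehicle, 17.6 after histidine, 20.5 after 6-MP and 16.4 after both, so that both libraries with histidine were below both without. MRPL16, whose bacterial counterpart lies near the site where tRNA is accommodated, had the same order of libraries, at 33.2, 29.2, 32.02 and 27.4 FPKM. The highest were MRPL38 at 0.26, MRPS28 at 0.25 and MRPL40 at 0.24, the first 2 of them with fewer than 64 reads per library.

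6-MP alone gave a similar picture. The median difference was -0.025, beside 0.0039 for all genes, and 44 of 74 members lay below 0. No member was lower by 0.5 or more, compared with 2.44% of all genes, and 1 was higher, compared with 2.28%. None reached an absolute difference of 1, compared with 1.18%. Of the protein-coding genes that averaged 5 FPKM or more, 5 were lower and 30 higher by 0.5 or more. The 1 higher member was MRPL23 (chromosome 11, 1947278 to 1984522), the counterpart of L23 at the tunnel exit, at 2.30 FPKM in vehicle, 2.47 after histidine, 4.93 after 6-MP and 2.71 after both. Only the 6-MP library stood out, from 225 reads compared with 98, 114 and 104, and the read ratio of 6-MP to vehicle was 1.099 (0.75 to 1.46). MRPS28 and MRPS18C followed at 0.43 and 0.20. The lowest were MRPS34 at -0.27, MRPL45 at -0.17 and MRPS18A at -0.15.

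The combined treatment was also compared with each single treatment, with the combined library shared by both comparisons and by that with vehicle. Against 6-MP the median difference of the members was -0.16, and 55 of 74 lay below 0. Lower by 0.5 or more were 9 members, compared with 6.88% of all genes, and higher were 2, MRPS33 at 0.57 and MRPL10 at 0.55, compared with 19.3%. None reached 1 in absolute value, compared with 6.02%. The lowest were MRPL12 at -0.76, MRPS34 at -0.70 and MRPL23 at -0.68, of which MRPL23 was high in the 6-MP library rather than low in the combined one.

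Against histidine the median was -0.13, with 51 of 74 members below 0. Lower by 0.5 or more were 6 members, compared with 7.53% of all genes, and higher was 1, MRPL10 at 0.59, compared with 17.8%. None reached 1 in absolute value, compared with 5.55%. The lowest were MRPS34 at -0.84, MRPL3 at -0.66 and MRPL4 at -0.63. The share lower by 0.5 or more is thus near that of all genes here. The list differs from all genes in its median and its few higher members, but few higher genes were also found in like lists. Higher by 0.5 or more were 3 of 76 cytosolic ribosomal protein genes and 2 of 34 NDUF genes. Among the 6735 protein-coding genes that averaged 5 FPKM or more, 782 were higher by that much. MRPS33 lay just inside the limit at 0.498, and MRPL33 followed at 0.41.

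Whether the combined value equals the sum of the single differences was described by the departure from additivity, that is, by how far the difference between combined and 6-MP exceeds the difference between histidine and vehicle on the log2(FPKM + 1) scale. Its median was -0.16 over the 74 members, with 51 below 0, beside 0.11 over all genes. The lowest departures were those of MRPS28 at -0.85, MRPL23 at -0.75 and MRPL3 at -0.62. MRPS28 rests on 23, 35, 43 and 16 reads in vehicle, histidine, 6-MP and combined. The highest were MRPL10 and MRPS33, both at 0.53, and MRPL45 at 0.48.

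**Figure D4:**
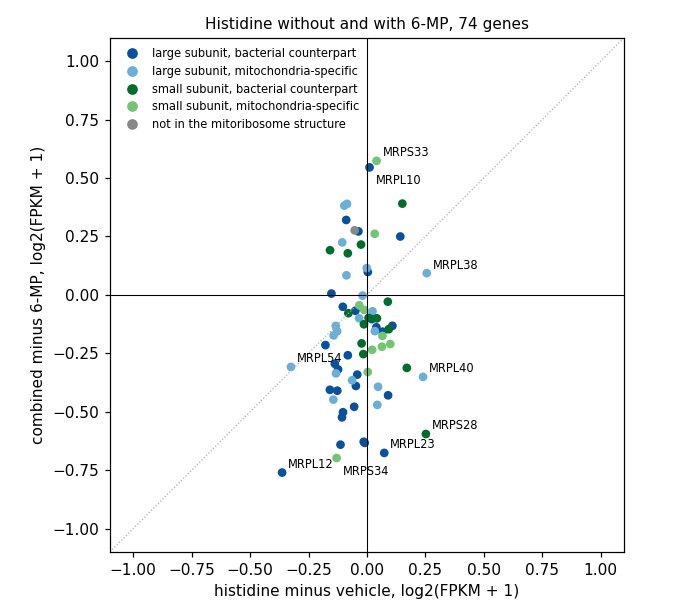
Each point is 1 of the 74 genes compared, with its difference between histidine and vehicle on the horizontal axis and between combined and 6-MP on the vertical axis, both in log2(FPKM + 1). Colours give the classes and the dotted line marks equal differences. The horizontal spread stays between -0.36 and 0.26, and the vertical spread runs from -0.76 to 0.57.

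Other genes of mitochondrial translation, grouped in lists by function, were placed beside the members. Of all genes, 7.37% were lower and 19.7% higher by 0.5 or more between combined and vehicle, and the counts of each list stand beside these shares. The 5 mitoribosomal proteins that carry other symbols had a median difference between combined and vehicle of -0.33, with 1 of 5 lower by 0.5 or more and none higher. CHCHD1, a protein of the small subunit, was at 24.5 FPKM in vehicle, 27.2 after histidine, 25.8 after 6-MP and 16.9 after both. DAP3, a GTP-binding protein of the small subunit, was the only one above 0, at 0.20.

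The mitochondrial aminoacyl-tRNA synthetases, which charge the tRNAs of the organelle, had a median of -0.31 over 15 genes, with 4 lower by 0.5 or more and none higher. The 9 genes of mitochondrial transcription and DNA replication compared had a median of -0.32, with 1 lower and 1 higher. TWNK, the mitochondrial DNA helicase, was at 18.6, 18.9, 18.5 and 8.91 FPKM in vehicle, histidine, 6-MP and combined, a difference of -0.98.

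The translation factors had a median of -0.14 over 17 genes, with 1 lower, LETM1 at -0.56, and 1 higher, PDF at 0.95. PDF was at 1.07 FPKM in vehicle, 4.31 after histidine, 3.72 after 6-MP and 3.01 after both, so that the vehicle library, with 44 reads, stood apart and the combined value was below those of both single treatments. TUFM, the elongation factor that brings tRNA to the ribosome and the most abundant of the factors, was at 128 FPKM in vehicle, 128 after histidine, 123 after 6-MP and 96.1 after both. The assembly and rRNA modification factors were closest to 0, with a median of -0.042 over 22 genes, 1 lower, MRM1 at -0.67, and 1 higher, NOA1 at 0.74. No gene of these 5 lists reached an absolute difference of 1 between combined and vehicle, and the genes named here were chosen after their values were seen.

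The 2 ribosomal RNAs of the mitochondrion had higher values in the combined library. MT-RNR1, of the small subunit, was at 384 FPKM in vehicle, 429 after histidine, 354 after 6-MP and 623 after both, a difference of 0.69. MT-RNR2, of the large subunit, was at 2957, 2771, 2712 and 3567 FPKM, a difference of 0.27. The libraries were made from poly(A) RNA, so these values are not a measure of the amount of ribosomes.

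**Figure D5:**
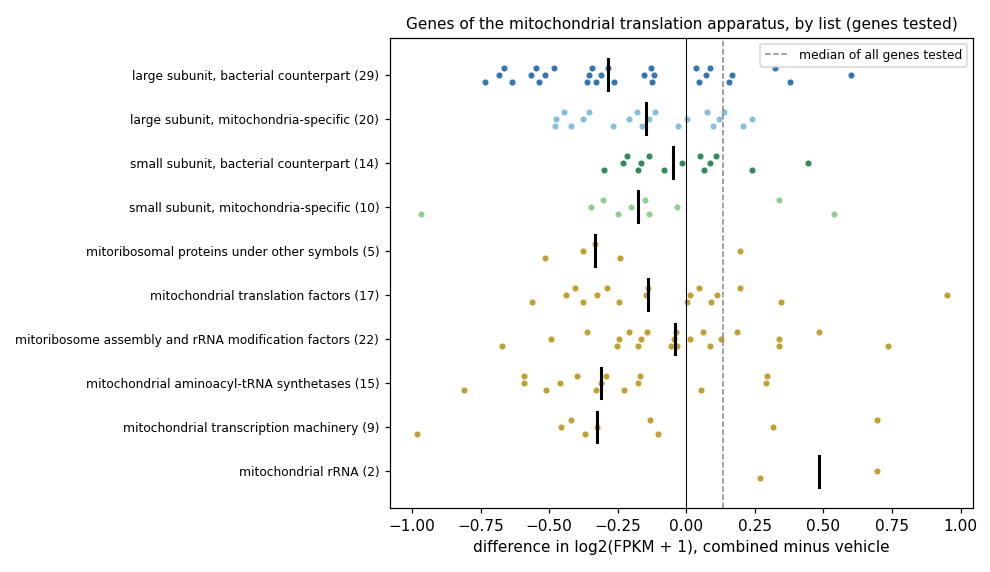
Each point is a gene compared, placed by its difference in log2(FPKM + 1) between combined and vehicle (horizontal axis), in 4 classes of the members (blue and green) and 6 further lists (yellow), with the number of genes in parentheses. Black bars are medians, and the dashed line is the median of all genes compared, 0.13. The medians lie at or below -0.042 in every list except the mitochondrial rRNAs, at 0.48.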

How the data were processed

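The 4 libraries were prepared by the authors from Reh-6-MPR cells with a stranded poly(A) mRNA kit. The authors deposited FPKM values per gene. The submitters' processing notes name Trimmomatic, HISAT2, Cufflinks and HTSeq and the build hg38 (GRCh38), without versions. Samples were grouped by their labels, 1 library per treatment. Reads per gene were worked out from the smallest step between FPKM values of a gene. They were whole (tolerance 0.001 reads) for 29832 of 29833 genes and for all 77 members, with the length multiplied by up to 6 for 5 members. On simulated data for combined against vehicle, 99.4% of 28220 genes were recovered exactly. The simulation was built from the recovered lengths and depths, so it checks the procedure and cannot show that the lengths are right. The recovered reads summed to 100.03% of the depth in the combined library and to 100.05% in vehicle. As there is 1 library per treatment, no test was run, and the fold limits of 0.5 and 1 in log2(FPKM + 1) were used, with 95% counting intervals on reads. Intervals cover counting error only, and reads without molecular identifiers are not independent molecules.

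The named members are the 10 highest and 10 lowest between combined and vehicle, the 3 highest and lowest in the other comparisons and in additivity, the 5 highest and lowest in level, any past 1, and MRPS18A, MRPS18B, MRPS18C, MRPS30, MRPS36, MRPL12 and MRPL58. Members and lists were chosen with earlier results of these data known. Exon overlap used GENCODE 29 and promoters used RefSeq windows. Alternatives tried were median-ratio scaling, a pseudocount of 0.1, a mean FPKM of at least 5, no filter, protein-coding genes only, and the read ratio without a pseudocount. Scripts ran under scipy 1.17.1, pandas 2.3.3, numpy 2.4.6 and matplotlib 3.10.9 in Python 3.11.15.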

Additional observations from a re-analysis of the deposited data

Results flagged for a closer look

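For MRPL40, a mitochondria-specific protein of the large subunit, adding histidine went with a higher value without 6-MP and a lower value with it. It was at 18.9 FPKM in vehicle and 22.5 with histidine, a difference of 0.24 in log2(FPKM + 1), and at 21.7 after 6-MP and 16.8 after both, a difference of -0.35. The counting intervals of the 2 read ratios lay on opposite sides of 0 (0.049 to 0.45 and -0.59 to -0.15), and the differences stood 0.59 apart (-0.59). MRPL40 was singled out from the 74 members compared by these same values. Between combined and 6-MP, 55 of the 74 lay below 0, with a lower quartile of -0.35. With 1 library per treatment the difference between the 2 MRPL40 ratios was not tested.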

How the results depend on the processing

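The median differences of the members kept their sign in all 5 comparisons under every alternative. With median-ratio scaling, 18 members were lower by 0.5 or more and 0 higher between combined and vehicle, 18 and 0 against 6-MP, and 13 and 0 against histidine, compared with 11.7% lower and 13.9% higher, 10.9% and 13.4%, and 11.4% and 12.7% of all genes on that scale, and 1 member reached an absolute difference of 1 from vehicle. With a mean FPKM of at least 5, 1 member was higher by 0.5 or more between combined and vehicle, compared with 13.5% of all genes. With that filter, 1 was higher against 6-MP and 0 between 6-MP and vehicle. With a pseudocount of 0.1, and likewise with the read ratio, 1 member reached 1 between combined and vehicle. On both settings 1 reached it between 6-MP and vehicle and 2 against 6-MP. Higher by 0.5 or more were 2 between 6-MP and vehicle and 2 against histidine. From vehicle to combined, that pseudocount gave 10 members lower and 3 higher by 0.5 or more, beside 9.14% and 25.3% of all genes. Between histidine and vehicle, 1 member was higher with no filter, and 1 lower and 1 higher with the read ratio. Counts without a share of all genes beside them cannot be set against the whole table here. The changes with the pseudocount follow from its weight in genes with low values. Of 1045 values of the named members under the alternatives, 25 moved beyond their counting interval and none changed sign while past 0.5. No paired analysis was possible because a treatment consists of a single library. Depth limits the members with few reads, such as MRPL12, MRPS28, MRPL2, MRPS12 and MRPS24.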
